A study of Homo sapiens with 4 samples.

Results

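The genes that carry a cell from G1 into S phase and copy its DNA were followed in T24 cells, a long-established human line grown from a urothelial (bladder) carcinoma. The list holds 37 genes of 58302 listed per library, chosen by role (cyclins and their kinases, E2F factors, origin licensing, the MCM helicase, polymerases, nucleotide supply and chromatin assembly). Their gene IDs were paired with symbols through GENCODE 29, and all 37 were found. Expression was measured in 4 RNA-seq libraries of polyA RNA, 2 from cells with a CRISPR/Cas9 knockout of IGF2BP3 and 2 from cells labelled control. IGF2BP3 encodes an RNA-binding protein, and the comparison asks how expression in T24 differs once it is lost. The labels name 1 cell line for both groups but leave out whether replicates were separate cultures and whether the edited cells were 1 clone or more, so p-values measure the spread between these libraries only, which may be technical. The study's design text calls the edited cells a stable line, and whether the controls carried a guide or Cas9 is not stated.

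In G1, cyclin D with CDK4 or CDK6 and then cyclin E with CDK2 phosphorylate the retinoblastoma protein, which releases E2F factors to switch on the genes of S phase. Replication origins are first licensed: the origin recognition complex, CDC6 and CDT1 load the ring-shaped MCM helicase onto DNA. At the start of S phase the kinase CDC7 with its activator DBF4, together with CDK2, recruits CDC45 and the GINS complex to the ring, and DNA polymerases then follow the opened fork. Most of these genes are E2F targets and are expressed in dividing cells such as those of a growing cancer line.

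Of the 37 genes, none passed an adjusted p of 0.05 in limma (Benjamini-Hochberg adjustment over all 11463 genes tested), where 0.0872% of all genes did (0.0611% higher and 0.0262% lower in the knockout). All 37 had a mean of at least 1 FPKM (fragments per kilobase of transcript, scaled to sequencing depth), the minimum for testing. The smallest adjusted p among them was 0.955 in limma. Without adjustment, 3 of the 37 (CDC45, MCM2 and RRM1) had a p under 0.05, against 3.91% of all genes, and limma-voom on recovered reads called 0 of 36 after adjustment. Fitted levels, given throughout as log2(FPKM + 0.5), were higher in the knockout for 16 genes and lower for 21, so that 43.2% were higher, against 48.2% of all genes tested. The median log2 fold change of the list was −0.15 and that of all genes −0.08. Leaving out knockout 1 turned the list's median to 0.24 (all genes 0.16), and leaving out knockout 2 gave −0.47 (all genes −0.56), so the sign of the median rested on which knockout library was kept.

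The libraries were shallow. Whole reads recovered from the FPKM gave totals of 811823 and 1240207 reads in the knockouts and 2162179 and 1870884 reads in the controls, so that both knockouts were shallower than both controls, and depth and genotype cannot be told apart. IGF2BP3 was listed at 0 and 0.190 FPKM in the knockouts and at 2.94 and 21.5 FPKM in the controls, on 0 and 1 reads against 27 and 171 (adjusted p = 0.955 in limma). Of the 11463 genes tested, 34.7% and 13.9% were at 0 in the knockouts and 28.3% and 12.3% in the controls. Epithelial and mesenchymal markers of the line were present (KRT8, KRT18, VIM and CD44, each at 171.6 FPKM or more in every library). KRT7 had 56.9 and 33.1 FPKM in the knockouts, against 0 and 4.27 FPKM in the controls, and so was not seen in control 1. The 7 markers of the line summed to 2157 and 1758 FPKM in the knockouts and to 961 and 936 FPKM in the controls, and 4 of the 5 tested lay higher without overlap, as did 12.1% of all genes tested. Their part in the results below was not tested. EPCAM and KRT19 were at 0 throughout, and so were 4 of 5 markers of differentiated urothelium. All 5 leukocyte markers and both erythroid markers were at 0, as were 3 of 4 endothelial and 3 of 5 fibroblast markers.

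Many of the 37 genes carry an E2F motif near their start, which the list did not use. RefSeq promoter windows (GRCh38.p14, 250 bases before to 50 after the gene start) were at hand for 31 of the genes. The 4 spellings TTTCCCGC, TTTGGCGC, TTTCGCGC and TTTGCCGC of the E2F motif were searched on both strands, with overlapping matches counted. At least 1 stood in 15 of 31 windows (48.4%), against 3.31% of 35116 promoters of all genes. Windows with 2 or more numbered 5, and 0.145% of all promoters had as many. A match is a description of letters and no measure of binding. The stretches below show the match nearest the start in GINS2, MCM2, MCM7 and LIG1, the motif carriers among the genes given full statistics further on. Those of E2F1, MCM3, MCM6 and PCNA were added, after the matches were seen, for their place at the centre of the pathway. Each runs 5′ to 3′ on the strand of the gene with the motif in capitals.
GINS2 (chr16:85688955-85689011, minus strand): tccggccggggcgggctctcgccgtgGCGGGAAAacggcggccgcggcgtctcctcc
MCM2 (chr3:127598402-127598431, plus strand): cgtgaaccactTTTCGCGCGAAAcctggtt
MCM7 (chr7:100101398-100101432, minus strand): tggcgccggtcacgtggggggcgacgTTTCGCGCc
LIG1 (chr19:48170425-48170484, minus strand): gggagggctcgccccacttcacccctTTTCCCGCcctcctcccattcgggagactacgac
E2F1 (chr20:33686386-33686431, minus strand): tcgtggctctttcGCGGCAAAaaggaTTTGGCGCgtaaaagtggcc
MCM3 (chr6:52284728-52284757, minus strand): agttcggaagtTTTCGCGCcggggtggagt
MCM6 (chr2:135876496-135876555, minus strand): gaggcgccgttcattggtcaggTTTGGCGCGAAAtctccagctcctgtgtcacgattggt
PCNA (chr20:5126648-5126707, minus strand): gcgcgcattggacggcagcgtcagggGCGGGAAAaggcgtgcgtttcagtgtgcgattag
In MCM2 and MCM6 a match on one strand overlaps a match on the other. The joined stretch is a palindrome in MCM2 and a near-palindrome in MCM6. E2F1 holds a pair of matches whose first bases lie 33 and 20 bases before the start. Among the 15 genes with a motif the median log2 fold change was −0.15, with 6 higher in the knockout and 9 lower. For the 16 genes without one it was −0.44, with 6 higher. Both groups of genes held members on either side of 0.

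**Figure D1:**
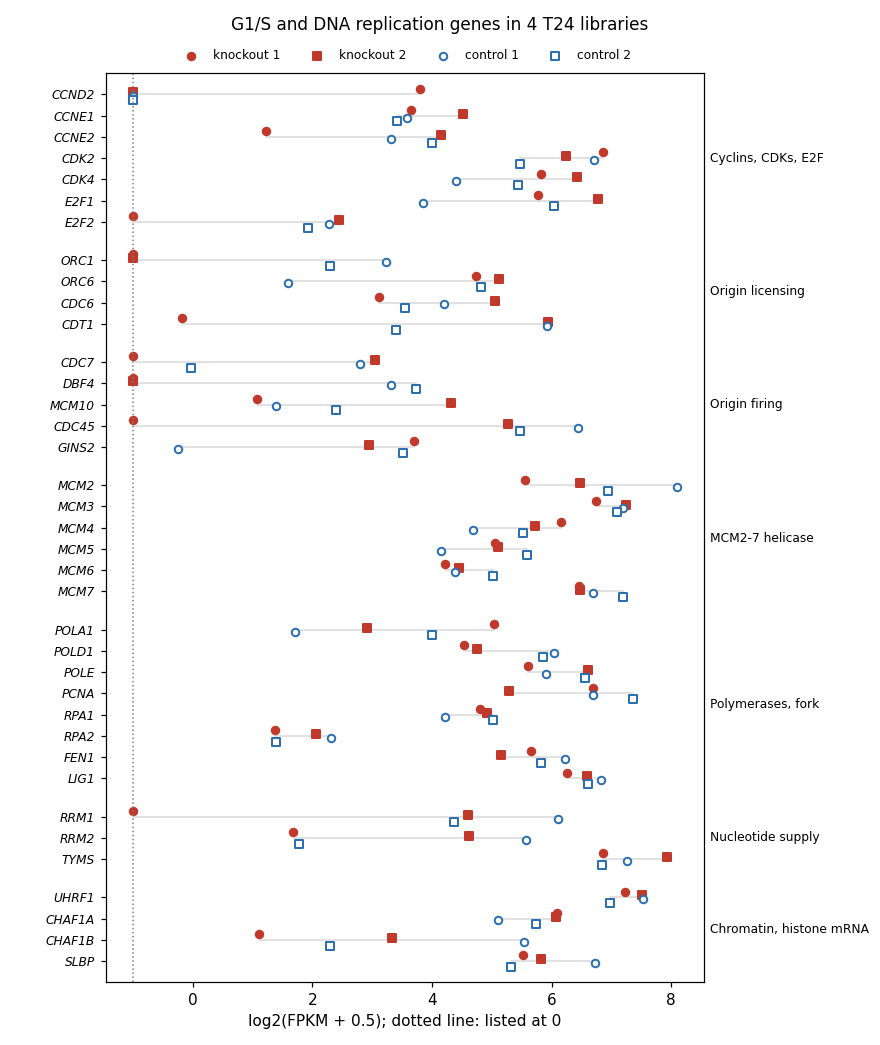
Level of each of the 37 genes in each library, as log2(FPKM + 0.5), with genes down the page by role. Filled red points are the 2 knockout libraries and open blue points the 2 controls, and points on the dotted line are listed at 0. UHRF1, MCM3 and LIG1 are among the genes whose 4 points lie close together, while MCM2, at a like level, runs from 46.6 to 272 FPKM.

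The level of the whole list overlapped between the groups. The median gene of the list stood at 26.2 and 34.01 FPKM in the knockouts and at 25.2 and 32.05 FPKM in the controls. Together the 37 genes took 0.459 and 0.623% of the reads in the knockouts and 0.656 and 0.567% in the controls, and the ranges overlapped. Over all 4 libraries the median gene of the list had a mean of 32.7 FPKM, against 10.4 FPKM for all genes tested. At least 1 library listed 7 of the 37 genes at 0 (18.9%), against 49.4% of all genes tested. Knockout 1, the shallowest library, held 6 of these zeros and the lowest value of 18 genes, knockout 2 held 3 zeros, and each control held 1. The part of depth in these zeros was not tested.

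Among cyclins, kinases and E2F factors, fitted levels were higher in the knockout for 5 of 7 genes, against 48.2% of all genes tested. Of the 7, 2 lay above both controls in both knockouts, as did 12.1% of all genes tested. The median log2 fold change of the 7 was 0.58, and none passed. CDK4, the partner kinase of D-type cyclins, had 56.4 and 85.1 FPKM in the knockouts, against 20.7 and 42.7 FPKM in the controls. Both knockout values lay above both control values, and the log2 fold change was 1.20 ± 0.99 (SE, n = 2 and 2; adjusted p = 0.955 in limma). CCNE1, which encodes cyclin E1, had 12.1 and 22.5 FPKM in the knockouts and 11.5 and 10.2 FPKM in the controls. Knockout 1 cleared the higher control by little, on 20 reads, and the log2 fold change of 0.58 ± 1.60 (SE; adjusted p = 0.991 in limma) was 0.15 without knockout 2. Its paralog CCNE2 had 1.85 and 17.2 FPKM in the knockouts, against 9.44 and 15.4 FPKM in the controls, and so lay on both sides of the control values.

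CDK2, the kinase of cyclin E, had 116 and 75.1 FPKM in the knockouts and 104 and 44.03 FPKM in the controls. E2F1, an activator of S-phase genes, stood at 54.1 and 109 FPKM in the knockouts, against 13.9 and 65.3 FPKM in the controls. For both genes the groups overlapped, through control 1 for CDK2 and through control 2 for E2F1. E2F2, a second activating E2F, was listed at 0 and 4.97 FPKM in the knockouts and at 4.37 and 3.29 FPKM in the controls. CCND2, which encodes cyclin D2, was seen in knockout 1 alone, at 13.5 FPKM on 71 reads, and was listed at 0 in knockout 2 and in both controls. Its fitted log2 fold change of 2.40 ± 2.54 (SE; adjusted p = 0.955 in limma) was 0 without knockout 1.

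The 4 origin licensing genes split evenly, with 2 higher and 2 lower in the knockout and none past the threshold. ORC1, the largest subunit of the origin recognition complex, was listed at 0 in both knockouts and had 8.94 and 4.402 FPKM in the controls. Those controls held 61 and 26 reads, while 3 reads, the floor used for a count of 0, would stand for 1.17 and 0.766 FPKM in the knockouts. Both controls lay above that floor. Pooled over each group, with 3 reads put over both knockouts together, ORC1 came out at least 14.8-fold lower in the knockouts. That value allows for counting error in the knockouts only and takes the control reads as they stand. The fit across all genes gave −3.77 ± 2.79 (SE; adjusted p = 0.955 in limma), a value that depends on the pseudocount. In hg38, ORC1 occupies chromosome 1 from 52372829 to 52404459 (minus strand).

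ORC6, another subunit of that complex, pointed the other way, at 26.2 and 34.3 FPKM in the knockouts and 2.52 and 27.7 FPKM in the controls. Control 1 alone was low, with 10 reads, and the log2 fold change of 1.72 ± 1.48 (SE; adjusted p = 0.955 in limma) was 0.11 without it. CDC6, a helicase loader, had 8.19 and 32.7 FPKM in the knockouts, against 17.8 and 11.2 FPKM in the controls. The knockouts spanned both controls. CDT1, its partner in loading, had 0.3802 and 60.5 FPKM in the knockouts and 59.8 and 10.1 FPKM in the controls. Knockout 1 held 1 read of CDT1 and knockout 2 held 243, the widest ratio between libraries of any gene on the list that was above 0 in all 4.

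Origin firing genes included the list's largest fitted difference. DBF4, the activator of the CDC7 kinase, was listed at 0 in both knockouts, against 9.47 and 12.9 FPKM in the controls, on 80 and 94 reads. With the same 3 reads put over both knockouts together, it came out at least 29.5-fold lower, again with counting error of the knockouts only. The fit gave −4.53 ± 2.83 (SE; adjusted p = 0.955 in limma). ORC1 and DBF4 were the 2 genes of the 37 at 0 in both knockouts and above 0 in both controls, a pattern held by 2.29% of all genes tested. Genes of that pattern reach the minimum for testing through the deeper controls alone, and the part of depth in it was not tested. No gene of the list had the opposite pattern, which 1.16% of all genes showed. In hg38, DBF4 occupies chromosome 7 from 87876216 to 87909541 (plus strand), and exons of SLC25A40 on the opposite strand overlap it.

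The kinase subunit CDC7 did not follow DBF4. Its values were 0 and 7.79 FPKM in the knockouts and 6.42 and 0.484 FPKM in the controls, low in 1 library of each group. CDC45, which joins the MCM ring to form the active helicase, had 0 and 38.2 FPKM in the knockouts, against 86.1 and 43.7 FPKM in the controls. Both knockouts lay below both controls, but knockout 2 missed control 2 by little. The log2 fold change of −3.81 ± 1.49 (SE; adjusted p = 0.955 in limma) came to −0.68 without knockout 1 and to −6.95 without knockout 2. GINS2, a GINS subunit, stood at 12.4 and 7.24 FPKM in the knockouts and 0.346 and 10.998 FPKM in the controls, and its log2 fold change of 1.68 ± 2.35 (SE; adjusted p = 0.955 in limma) turned to −0.20 without control 1. MCM10, which acts as the helicase is switched on, had 1.61 and 19.3 FPKM in the knockouts, against 2.12 and 4.78 FPKM in the controls, with knockout 2 far above the other 3 libraries.

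The 6 subunits of the MCM helicase (MCM2 to MCM7), which form one ring in equal numbers, differed in direction, and none passed. Their FPKM summed to 362 and 434 in the knockouts and to 582 and 529 in the controls, groups that did not overlap. Most of that gap was MCM2, which had 46.6 and 88.4 FPKM in the knockouts, against 272 and 123 FPKM in the controls. These values rest on 137 and 397 reads in the knockouts and on 2131 and 831 reads in the controls. The log2 fold change was −1.50 ± 0.72 (SE, n = 2 and 2; adjusted p = 0.955 in limma), between −2.08 and −0.93 with any 1 library left out. In hg38, MCM2 occupies chromosome 3 from 127598223 to 127622436 (plus strand), and exons of TPRA1 overlap it.

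MCM7 had 87.1 and 88.1 FPKM in the knockouts and 102 and 145 FPKM in the controls, and MCM4 had 70.97 and 52.2 FPKM in the knockouts against 25.2 and 45.6 FPKM in the controls. The knockouts lay below both controls for MCM7 and above both for MCM4. Their log2 fold changes of −0.47 ± 0.73 and 0.83 ± 0.99 (SE) did not pass (adjusted p = 0.955 and 0.955 in limma). They came to −0.22 for MCM7 without control 2 and to 0.41 for MCM4 without control 1. MCM3 was the steadiest subunit, at 107 and 150.3 FPKM in the knockouts and 145 and 136 FPKM in the controls. MCM5 stood at 32.7 and 34.01 FPKM in the knockouts, against 17.3 and 47.5 FPKM in the controls. MCM6 was the lowest subunit of 3 libraries, at 18.1 and 21.4 FPKM in the knockouts and 20.3 and 32.05 FPKM in the controls. Within a library the highest subunit exceeded the lowest by 5.89 and 7.03 times in the knockouts and by 15.7 and 4.53 times in the controls.

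**Figure D2:**
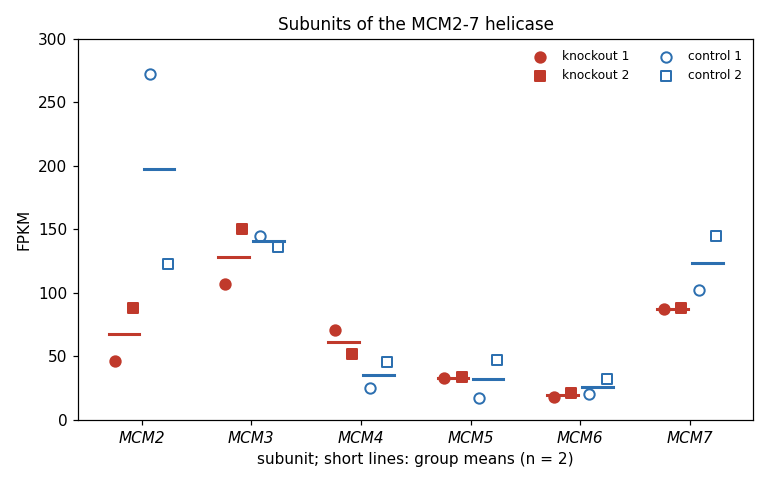
FPKM of the 6 subunits of the MCM helicase, with the 2 knockout libraries (filled red) left of the 2 controls (open blue) for each subunit and short lines at the group means. Control 1 held 272 FPKM of MCM2, and the other subunits differed less between the groups.

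At the fork, 6 of 8 genes had a lower fitted level in the knockout (POLE came to 0.04 under limma-voom). Of all genes tested, 48.2% had a higher fitted level. The median log2 fold change of the 8 was −0.21, and none passed. Among the 6, POLE and RPA2 (−0.13 each) changed sign in some fits with 1 library left out. POLD1, the catalytic subunit of DNA polymerase delta, had 22.6 and 26.4 FPKM in the knockouts, against 65.5 and 57.3 FPKM in the controls. The replicates of each group lay close together and the groups apart. The log2 fold change of −1.31 ± 1.05 (SE; adjusted p = 0.955 in limma) ran from −1.42 to −1.20 with any 1 library left out. The SE comes from the spread of other genes at that level, so the close replicates of POLD1 itself had no weight in it. In hg38, POLD1 occupies chromosome 19 from 50384204 to 50418016 (plus strand), and a gene on the same strand, AC020909.1, shares exon positions with it.

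FEN1, the nuclease that trims Okazaki fragments, had 49.9 and 35.1 FPKM in the knockouts and 74.5 and 56.3 FPKM in the controls. LIG1, the ligase that joins those fragments, stood at 76.3 and 95.5 FPKM in the knockouts, against 113 and 96.8 FPKM in the controls. Both genes lay below both controls in both knockouts, with log2 fold changes of −0.62 ± 0.94 and −0.29 ± 0.75 (SE; adjusted p = 0.955 and 0.989 in limma). For LIG1 the higher knockout and the lower control differed by less than the knockouts differed from each other. PCNA, the sliding clamp that holds polymerases on DNA, had 103 and 38.6 FPKM in the knockouts and 102 and 164 FPKM in the controls, and knockout 1 lay close to control 1.

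POLE, the catalytic subunit of polymerase epsilon, had 47.97 and 96.6 FPKM in the knockouts and 59.2 and 93.9 FPKM in the controls. POLA1, the catalytic subunit of polymerase alpha, had 32.3 and 7.05 FPKM in the knockouts, against 2.78 and 15.6 FPKM in the controls. Both overlapped between the groups. RPA1, the large subunit of the protein that coats single-stranded DNA, stood at 27.2 and 29.9 FPKM in the knockouts and 18.1 and 32.02 FPKM in the controls. RPA2, its middle subunit, was much lower in every library, at 2.11 and 3.68 FPKM in the knockouts and 4.49 and 2.14 FPKM in the controls, on at most 17 reads.

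The nucleotide supply genes overlapped in all 3 cases. RRM1, the large subunit of ribonucleotide reductase, had 0 and 23.7 FPKM in the knockouts, against 68.4 and 20.3 FPKM in the controls, and its log2 fold change of −3.44 was −0.64 without knockout 1. RRM2, its small subunit, stood at 2.68 and 23.9 FPKM in the knockouts and 46.97 and 2.91 FPKM in the controls. For both subunits control 1 was the highest library and knockout 1 the lowest. TYMS, which makes thymidylate and is the target of fluorouracil, had 116 and 244 FPKM in the knockouts and 152 and 114 FPKM in the controls, and knockout 2 stood above the rest.

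Among the chromatin genes, UHRF1, which guides maintenance of DNA methylation behind the fork, was the most abundant of the list on average. It had 149 and 181 FPKM in the knockouts, against 185 and 126 FPKM in the controls, and the groups overlapped. CHAF1A, the large subunit of the histone chaperone CAF-1, had 67.9 and 66.9 FPKM in the knockouts and 33.8 and 52.7 FPKM in the controls. Its knockouts were nearly equal and lay above both controls, for a log2 fold change of 0.67 ± 0.93 (SE; adjusted p = 0.955 in limma). CHAF1B, a second subunit of CAF-1, had 1.65 and 9.54 FPKM in the knockouts, against 45.8 and 4.41 FPKM in the controls, with control 1 far above the other libraries. SLBP, which binds histone mRNA, stood at 45.5 and 56.3 FPKM in the knockouts and 105 and 39.5 FPKM in the controls. The FPKM ratio of CHAF1A to CHAF1B was 41.1 and 7.01 in the knockouts and 0.737 and 11.9 in the controls, so these partners did not keep one ratio within either group.

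**Figure D3:**
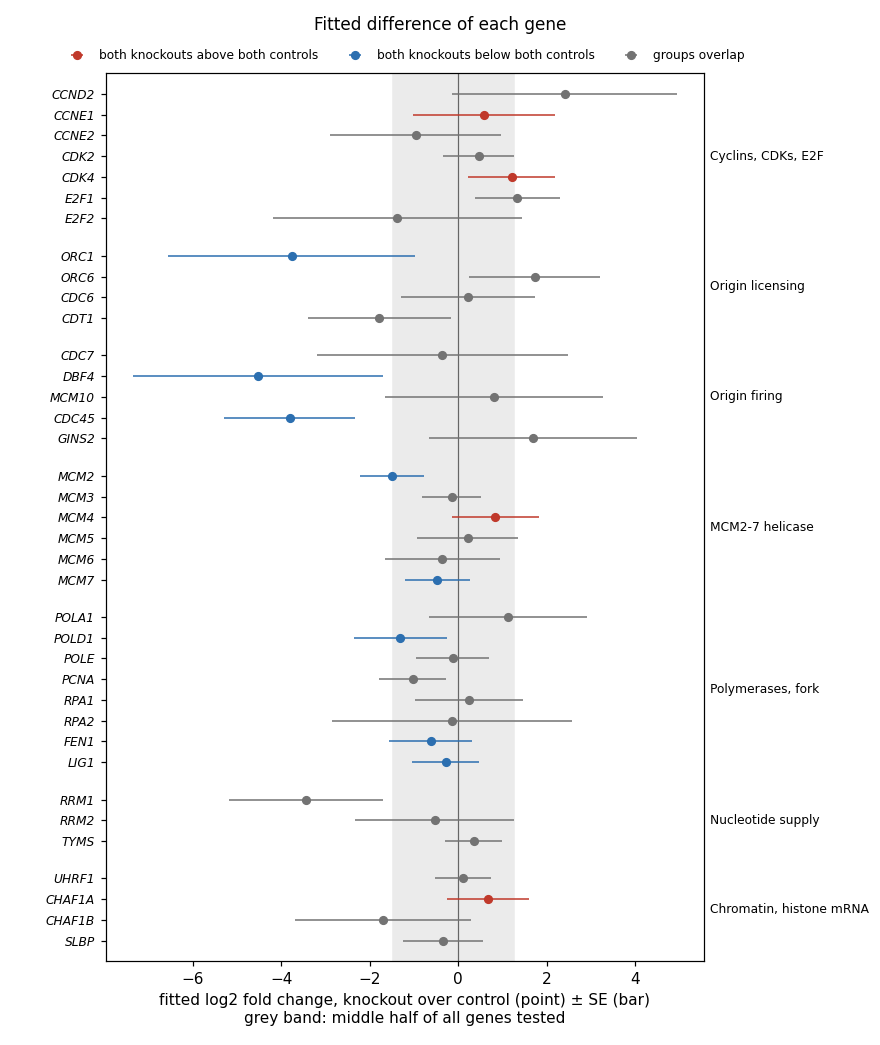
Fitted log2 fold change of each gene, knockout over control, with its SE, by role. Red marks genes whose knockouts both lie above the controls, blue those whose knockouts both lie below, and grey those that overlap; the grey band is the interquartile range of all genes tested (−1.49 to 1.26), and 26 of the 37 genes fall in it.

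Separation without overlap was seen for 12 of the 37 genes (32.4%), against 26.5% of all genes tested. Both knockouts lay above both controls for 4 of them (CCNE1, CDK4, MCM4 and CHAF1A), where 12.1% of all genes did so. Both lay below for 8 (ORC1, DBF4, CDC45, MCM2, MCM7, POLD1, FEN1 and LIG1), where 14.4% of all genes did so. The difference of group means was larger than the gap between the replicates of either group for 7 genes (18.9%), against 15.4% of all genes. These 7 were CDK4, ORC1, DBF4, MCM2, POLD1, FEN1 and CHAF1A. For ORC1 and DBF4 the gap between the knockouts was 0 because both were listed at 0.

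Replicates of these genes lay closer together than those of genes at large. The median gap on the log2 scale was 0.74 between the knockouts and 0.84 between the controls over the list, against 1.89 and 1.60 over all genes tested. The list is also the more abundant. In the upper 19 genes by mean FPKM, 1 was at 0 in some library and the median gaps were 0.50 and 0.68. In the lower 18 genes, 6 were at 0 in some library and the median gaps were 2.03 and 0.93. The FPKM of 6 genes (MCM3, MCM6, MCM7, RPA1, LIG1 and UHRF1) varied by less than 2-fold over all 4 libraries.

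**Figure D4:**
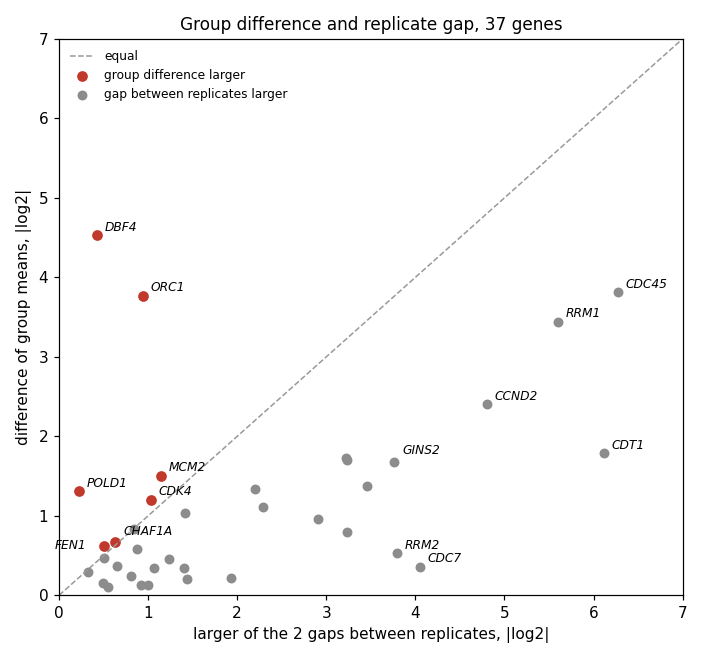
Absolute difference of group means against the larger of the gaps between replicates, both on the log2 scale, for the 37 genes. The 7 red points above the dashed line differ more between groups than within either, and CDC45, RRM1 and CDT1 at the right have the widest gaps between replicates.

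Across the 37 genes, which share the libraries and their depth, Pearson's correlation of levels was 0.64 between the knockouts and 0.72 between the controls. Between libraries of different groups it ran from 0.37 (knockout 1 with control 1) to 0.76 (knockout 2 with control 2). The highest correlation on the list was thus between libraries of different groups. Over all genes tested the same correlations were 0.43 and 0.49 within groups and 0.42 to 0.49 between them.

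Other genes of the pathway gave a like picture. Of 70 further G1/S and replication genes, 65 were tested and none passed in limma. An unadjusted p under 0.05 in limma was held by 4 of the 65, against 3.91% of all genes tested. Fitted levels were higher in the knockout for 29 and lower for 36, where 48.2% of all genes tested were higher. The median log2 fold change of the 65 was −0.10. Of the 65, 15 (23.1%) had no overlap between the groups, against 26.5% of all genes tested. CCND1, which encodes cyclin D1, had 91.2 and 227 FPKM in the knockouts and 359 and 316 FPKM in the controls. CCND3, the cyclin D3 gene, stood at 111 and 32.3 FPKM in the knockouts, against 1.74 and 6.92 FPKM in the controls. Both pairs were without overlap, in opposite directions.

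RB1, the retinoblastoma gene, had 60.8 and 22.5 FPKM in the knockouts and 0 and 8.95 FPKM in the controls, and its relative RBL1 had 1.3003 and 2.695 FPKM in the knockouts against 63.1 and 7.71 FPKM in the controls. CDK inhibitor genes split as well. CDKN1B (p27) had 1.85 and 39.8 FPKM in the knockouts, against 0.348 and 0.201 FPKM in the controls. Those values rest on 4 and 131 reads in the knockouts and on 2 and 1 reads in the controls. CDKN2D (p19) was at 0 in both knockouts and had 3.58 and 32.7 FPKM in the controls. ORC2, a subunit that works beside ORC1, had 21.7 and 17.6 FPKM in the knockouts and 1.39 and 4.46 FPKM in the controls, opposite in direction to ORC1. MCM9, a relative of the helicase subunits, had 0 and 7.43 FPKM in the knockouts, against 10.1 and 7.89 FPKM in the controls. RPA3, the small RPA subunit, had 1.83 and 7.58 FPKM in the knockouts and 30.2 and 10.1 FPKM in the controls, and the clamp loader gene RFC4 had 23.8 and 35.6 FPKM in the knockouts against 6.71 and 22.1 FPKM in the controls. None of these passed (adjusted p = 0.955 for each in limma).

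Markers of arrest and of proliferation were read beside these genes. Of 5 quiescence or arrest markers, CDKN1C was at 0 in all 4 libraries, and the other 4 (CDKN1A, CDKN1B, CCNG2 and RBL2) had a higher fitted level in the knockout, with no overlap for 3 of the 4 (CDKN1A, CDKN1B and CCNG2), where 12.1% of all genes lay higher without overlap, and none past the threshold. RBL2 overlapped. CDKN1B cleared the controls in knockout 1 by few reads, 4 against 2 and 1, and most of its height was in knockout 2. The summed level of the 5 markers was 196 and 95.9 FPKM in the knockouts, against 5.24 and 34.2 FPKM in the controls. CDKN1A, which encodes the CDK inhibitor p21, had 90.7 and 42.3 FPKM in the knockouts and 4.896 and 17.2 FPKM in the controls. The 5 proliferation markers (MKI67, TOP2A, BIRC5, CCNB1 and CDK1) summed to 442 and 404 FPKM in the knockouts and to 349.6 and 381 FPKM in the controls. Both knockout sums thus lay above both control sums. Fitted levels were higher in the knockout for 3 of the 5 and lower for 2, and none passed. BIRC5 alone lay higher without overlap, as did 12.1% of all genes tested. The part of either marker set in the levels of the 37 genes was not tested. In bulk libraries, the share of cells in S phase and the amount of RNA per cell cannot be told apart.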

How the data were processed

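RNA of T24 cells was sequenced in 4 libraries, 2 of IGF2BP3 knockout and 2 of control cells, with Trizol extraction and an Illumina TruSeq kit, per the labels' protocols. The authors deposited 1 FPKM value per gene and library, from reads counted with HTSeq per the file names, and the submitters' processing notes name hg38. Not given in the sources used here were the aligner, annotation release, strand setting and duplicate removal. Without a known strand setting, reads of overlapping genes cannot be told apart, and exons of other genes overlap 17 of the 37 members. Pseudogenes named after 8 members, 15 in all, were listed at 0 in every library, so how reads shared with them were counted cannot be told.

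Names, positions and longest transcripts came from GENCODE 29 (58039 genes matched). FPKM times that length gave whole multiples of 1 read for 96.5 to 96.7% of genes above 0 (tolerance 0.0001), and 1 member's length was solved from its values. A count of 0 allows up to 3 reads, and reads cover counting error only. Genes with a mean of at least 1 FPKM were tested with limma 3.58.1 (lmFit, eBayes with trend, R 4.3.3) on log2(FPKM + 0.5), a scale that understates changes of low genes. The prior gave a gene's own replicates no weight. The code was run on simulated counts with planted changes, whose replicates were set to vary less than these libraries do, so that run says nothing of the error rate here. Alternatives were other pseudocounts, filters and scalings, no trend, a replicate block, limma-voom and each library left out. Members and lists were chosen with earlier results of these data known. Full statistics were given for members whose groups do not overlap and for the 3 largest changes in each direction, and other pathway genes were named when among the 2 largest of their list without overlap; CDKN1A and the extra promoter windows were chosen after their values were seen. Tables and figures used Python 3.11.15, pandas 2.3.3 and matplotlib 3.10.9.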

Additional observations from a re-analysis of the deposited data

How the results depend on the processing

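No member passed under the 9 alternatives that kept all 4 libraries or with any 1 library left out, where it was tested, and the smallest adjusted p of a member was 0.107 in limma (ORC1 without control 1). With all 4 libraries, members higher in the knockout were 15 of 32 at a mean of at least 5 FPKM, 17 of 36 in limma-voom and 16 of 37 otherwise. With 1 library left out they were 12 to 23 of 37. The median log2 fold change of the members was −0.47 to 0.24 with 1 library left out. The 10 genes past the threshold over all genes were 7 to 14 under the alternatives that kept all libraries, except 0 when eBayes had no trend (unadjusted p under 0.05 for 415), and 0 with each library left out (752 to 1025 at an unadjusted p under 0.05). The cause was not tested. Of 15 members given full statistics, all kept their sign in those alternatives with 4 libraries that tested them (CCND2 and ORC1 were not tested at a mean of at least 5 FPKM, nor POLD1 in limma-voom), and 13 in every fit with 1 left out. GINS2 ran from −0.20 to 3.56 and CCND2 from 0 to 4.81 there, CDK4 from 0.69 to 1.72, FEN1 from −0.87 to −0.37, LIG1 from −0.45 to −0.13 and CHAF1A from 0.35 to 0.98. In those fits a lone library is taken to vary as the other group does. Limma-voom moved the median of all genes to 0.04 from −0.08 and that of the members to −0.08; among members, POLE changed sign (0.04). With the replicate number as a block, 14 genes and 0 members passed. Libraries with the same number did not deviate together gene by gene (correlation of deviations −0.0040 over 11463 genes). Yet those numbered 1 listed more tested genes at 0 (34.7% knockout, 28.3% control) than those numbered 2 (13.9% and 12.3%). Whether the numbers pair the samples is not known. RPA2 rests on few reads, 3 to 17 per library, and the part of depth in the members at 0 was not tested.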
